A study of Homo sapiens with 2 samples.

Results

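The genes described here are the 52 rows on chromosome 9 that start below 80 Mb (GRCh38), out of 1806 genes that the authors listed as different between a pair of human ovarian cancer lines. They cover the short arm and the proximal long arm, and include JAK2, CD274, MTAP, CDKN2B, SMARCA2, VLDLR and PLIN2. The rows were chosen by position, but from a table already selected for a difference between the lines. Every row in it has an authors' adjusted p under 0.05. The cell line UWB1.289 comes from a serous carcinoma of the ovary, has no functional BRCA1, a tumour suppressor of homologous recombination, and is labelled a knockout. The partner, with the sample title UWBBRCA and the cell line label UWABRCA1, is labelled wild type and is the same line with BRCA1 supplied. Neither line was treated, and the labels give 1 sample of total RNA for each, so no test across samples was possible. The series title names the wider question, the link between choline metabolism, FAM3C and metastasis of ovarian cancers without BRCA1.

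The values are FPKM, fragments scaled to transcript length and library size, as the authors' mean per line. The depth and the spread behind these means are unknown. All p-values below are the authors' own, adjusted over all features of their test. The last row of the table has rank 2716 of 38868 features in that adjustment, and 6.99% of features lie at or above this rank. BRCA1 itself, on chromosome 17, was at 5.63 FPKM in the BRCA1-deficient line against 22.03 in its partner. Of the defining markers looked up, 2 of 9 ovarian epithelial genes had a row (WT1 and MUC16), with a summed level of 6.22 against 1.56 FPKM. Leukocyte markers (5 names) had no row, 2 of 6 fibroblast markers summed to 10.5 against 97.4 FPKM, and 2 of 4 endothelial markers to 16.5 against 4.94 FPKM. The table holds only genes called different, so a marker without a row may be expressed in both lines. The sums cover the markers with a row alone and do not show cell identity. The part of these markers in the results below was not tested.

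The short arm of chromosome 9 is known for genes that act in very different processes but lie close together. CDKN2B, which encodes an inhibitor of the cyclin D kinases, lies near MTAP, the enzyme that returns methylthioadenosine to the methionine cycle. Nearer the telomere, JAK2, a kinase of cytokine receptors, lies near CD274, which encodes the checkpoint ligand PD-L1 that engages PD-1 on T cells. In human tumours the CDKN2 and MTAP neighbourhood is a known site of deletion, and JAK2 and CD274 are known to be gained together. The RNA values used here hold no measure of DNA.

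The sequence just upstream of CDKN2B, MTAP, CD274 and JAK2 is shown because these genes form the best known neighbourhoods of the region and were all lower in the same line. Each is taken from the RefSeq promoter table (GRCh38.p14), reads 5′ to 3′ on the gene's strand, and ends before the most upstream gene start in the deposited coordinates, GENCODE or RefSeq. Capitals mark a GC box, GGGCGG on either strand. The CDKN2B window is chr9:22009364-22009555 on the minus strand, MTAP is chr9:21802386-21802542, CD274 is chr9:5450292-5450502 and JAK2 is chr9:4984140-4984389, all 3 on the plus strand.
CDKN2B: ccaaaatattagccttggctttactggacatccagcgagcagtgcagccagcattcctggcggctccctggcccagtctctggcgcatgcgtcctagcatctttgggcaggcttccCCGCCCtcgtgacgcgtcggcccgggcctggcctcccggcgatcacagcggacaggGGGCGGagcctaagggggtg
MTAP: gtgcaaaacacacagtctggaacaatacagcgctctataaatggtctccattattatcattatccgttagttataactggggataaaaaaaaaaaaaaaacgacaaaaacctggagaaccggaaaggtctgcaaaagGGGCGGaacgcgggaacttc
CD274: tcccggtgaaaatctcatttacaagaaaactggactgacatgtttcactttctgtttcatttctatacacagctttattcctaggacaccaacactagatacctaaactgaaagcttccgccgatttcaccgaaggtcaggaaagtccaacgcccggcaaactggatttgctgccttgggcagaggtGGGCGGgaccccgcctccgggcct
JAK2: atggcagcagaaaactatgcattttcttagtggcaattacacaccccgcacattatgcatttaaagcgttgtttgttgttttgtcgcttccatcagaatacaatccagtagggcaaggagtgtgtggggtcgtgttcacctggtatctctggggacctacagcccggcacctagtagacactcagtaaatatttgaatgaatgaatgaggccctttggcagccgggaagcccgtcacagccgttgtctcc
The CDKN2B stretch holds 2 GC boxes, the MTAP and CD274 stretches hold 1 each, and these letters are not in the JAK2 stretch. GC content was 66.1% over 192 bases for CDKN2B, 40.8% over 157 for MTAP, 49.8% over 211 for CD274 and 48.4% over 250 for JAK2. In the full windows of 250 bases it was 66.4%, 50%, 54.8% and 48.4% in the same order. The full MTAP window held 2 GC boxes.

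Over the full 250 bases upstream of the RefSeq start, 47 of the 52 genes had an entry. RRAGA, GNAQ, ANKRD20A1, ANKRD20A2 and ANKRD20A3 had none. The GC box was found in 30 of the 47 (63.8%), against 56.0% of 15842 protein-coding promoters of the same length, both strands searched. CCAAT was found in 38.3% against 34.5%, TATAAA in 10.6% against 9.23%, and CACGTG in 6.38% against 7.84%. The letters TTCNNNGAA, a common form of the STAT element, were in 1 of the 47 windows, that of CD274, against 6.12% of all. The median GC content of the windows was 63.2% for the 47 genes and 62.4% for all. Motifs were counted separately, so matches may overlap, and none of these shares was tested.

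All 52 genes were lower in the BRCA1-deficient line by the authors' fold, where 46.5% of all listed genes were lower. The region was chosen with this direction known, so the count describes the genes and nothing is read from it. On the scale of FPKM + 1, which understates the change of low genes, 34 of the 52 were at least 2-fold lower, beside 22.5% of all listed genes, and 0 were at least 2-fold higher, beside 25.3%. The median log2 difference of FPKM + 1 was -1.30, against 0.20 over all listed genes. In the authors' deposited table the log2 fold changes of the 52 ran from -5.92 for ADAMTSL1 to -1.10 for GLIS3, with a median of -1.83. No gene of the region was listed at 0 in either line. In the partner line 44 of the 52 reached 1 FPKM, and in the deficient line 30 did. The remaining 8 stayed under 1 FPKM in both.

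**Figure D1:**
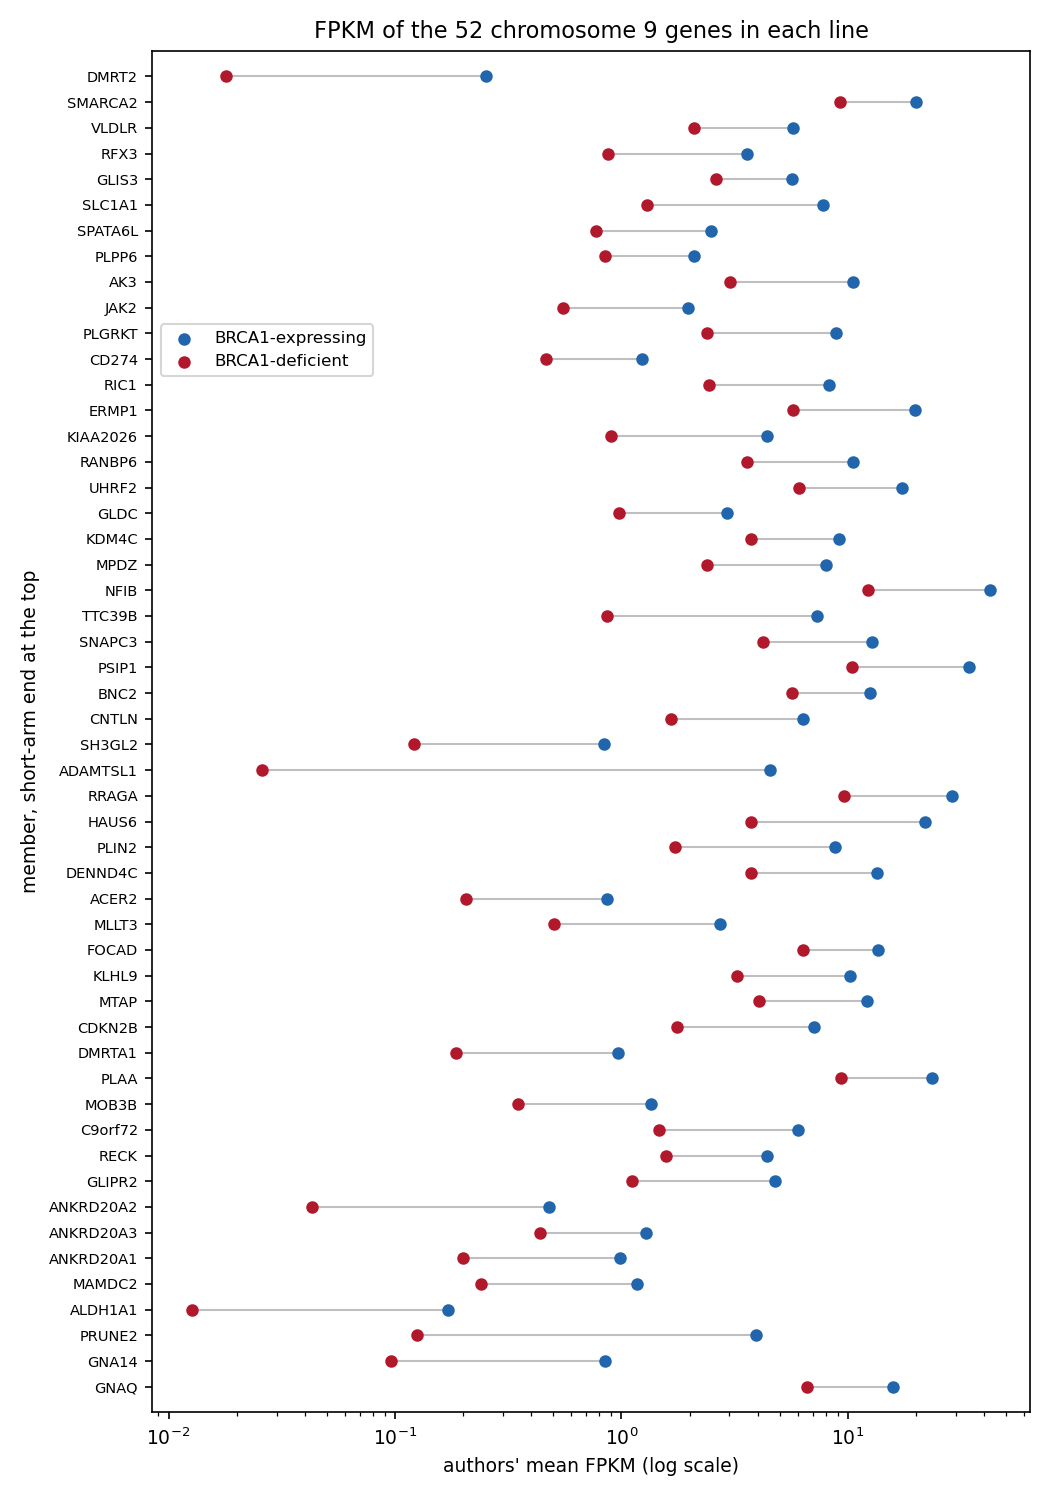
Authors' mean FPKM (log axis) of the 52 genes in the BRCA1-deficient line (red) and the BRCA1-expressing line (blue), ordered from the short-arm end at the top to the position limit at the bottom, with a grey line joining the pair of values. The red point lies left of the blue one for every gene, and the longest line belongs to ADAMTSL1 (0.0258 against 4.52 FPKM).

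For the 30 genes that reached 1 FPKM in each line, the level kept in the deficient line was compared as a share of the partner's. The median was 31.2%, with quartiles of 27.3% and 36.5% and a range from 16.8% (SLC1A1) to 46.5% (FOCAD). The 365 other lower genes past the same minimum kept a median of 38.7%, with quartiles of 30.8% and 43.3% and a range from 6.21% to 75.2%. This difference was not tested, and the authors' threshold removed genes with small differences from both sets.

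CDKN2B and the other cell division genes were among the clearly lower ones. CDKN2B (ENSG00000147883, 22002903 to 22009305, minus strand) was at 1.77 FPKM without BRCA1 and at 7.12 FPKM with it. Its log2 fold change in the authors' deposited table was -1.97, with an adjusted p of 4.49e-06. HAUS6, a subunit of the augmin complex that builds spindle microtubules, had 3.74 against 22.0 FPKM. That is 17.0% of the partner's level, the lowest share of these 4 genes. CNTLN, a centrosomal protein, had 1.65 against 6.32 FPKM. KLHL9, a substrate adaptor of a CUL3 ubiquitin ligase used in mitosis, had 3.24 against 10.2 FPKM. All 4 were at least 2-fold lower on the FPKM + 1 scale, beside 34 of the 52 genes of the region. In the list of CDK inhibitors, D cyclins and RB, CDKN2B was the only 1 of 16 names with a row. CDKN2A, its neighbour, had no row and is not analysed here.

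The 6 metabolic enzymes and transporters, MTAP among them, kept between 7.40% (ALDH1A1) and 33.4% (MTAP) of the partner's level. MTAP (ENSG00000099810, 21802636 to 21937651, plus strand) had 4.06 FPKM in the deficient line against 12.2 FPKM, with a log2 fold change of -1.71 and an adjusted p of 0.000396 in the authors' deposited table. Its exons overlap a second annotated protein-coding gene on the same strand, so some of its reads cannot be assigned with certainty. ERMP1, a metallopeptidase of the endoplasmic reticulum, had 5.73 against 19.7 FPKM, and AK3, a mitochondrial nucleotide kinase, 3.02 against 10.5 FPKM. SLC1A1, a plasma membrane carrier of glutamate and cysteine, had 1.30 against 7.74 FPKM. GLDC, the decarboxylase of the glycine cleavage system, had 0.979 against 2.94 FPKM. ALDH1A1, which oxidises retinal, was at 0.0127 against 0.172 FPKM, the lowest pair of levels in the region.

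Other genes of methionine salvage and polyamine synthesis went both ways. Of 18 names 4 were listed: PRMT5 and SRM as higher without BRCA1, MTAP and SAT1 as lower. PRMT5, the arginine methyltransferase that methylthioadenosine inhibits, was higher at 107 against 51.9 FPKM. SRM, which makes spermidine, was higher at 45.8 against 16.2 FPKM. SAT1, which acetylates polyamines for export, was lower at 13.5 against 29.9 FPKM. Their log2 fold changes in the authors' deposited table were 1.22, 1.60 and -1.09.

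JAK2 and CD274 were both lower, from low levels. JAK2 (ENSG00000096968, 4984390 to 5128183, plus strand) was at 0.552 FPKM without BRCA1 and at 1.96 FPKM with it. CD274 (ENSG00000120217, 5450503 to 5470566, plus strand) had 0.466 against 1.23 FPKM. In the authors' deposited table these were log2 fold changes of -1.75 and -1.70, at adjusted p of 0.0084 and 0.00594. Neither reached 2-fold on the scale of FPKM + 1, where the differences were -0.93 and -0.60. PDCD1LG2, the second PD-1 ligand, which lies next to CD274, had no row and is not analysed here.

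Elsewhere in the genome, JAK-STAT genes with a row were lower too, while checkpoint ligands were divided. Of 28 JAK-STAT names 5 had a row, all lower, JAK2 included. JAK1, the partner kinase of JAK2 at many cytokine receptors, had 44.4 against 88.9 FPKM. SOCS2, a feedback inhibitor, had 1.24 against 5.26 FPKM, and STAT4 stayed under 1 FPKM in both lines. In the authors' deposited table the adjusted p was 9.9e-05 for SOCS2 and 0.0484 for JAK1. Of 16 checkpoint ligand names 6 had a row. CD274, VTCN1 (0.0476 against 0.679 FPKM) and TNFSF4 (0.164 against 1.05) were lower. TNFRSF14 (1.79 against 0.152 FPKM), VSIR (3.41 against 1.10) and TNFSF9 (2.69 against 0.987) were higher. None of the 16 type I interferon genes that lie between JAK2 and CDKN2B had a row.

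All 5 genes of lipid handling were lower, but the region was chosen with this direction known. On the FPKM + 1 scale 3 of the 5 were at least 2-fold lower, beside 34 of the 52 in the region. PLIN2 (ENSG00000147872, 19108375 to 19149290, minus strand), which coats lipid droplets, was at 1.73 FPKM against 8.82, or 19.6% of the partner's level, with an adjusted p of 4.88e-07 in the authors' deposited table. VLDLR (ENSG00000147852, 2621787 to 2660056, plus strand), a receptor for triglyceride-rich lipoproteins and for reelin, was at 2.10 FPKM against 5.71, or 36.7%. TTC39B, linked in mouse to turnover of the liver X receptor, had 0.862 against 7.33 FPKM, or 11.8%. PLPP6, a phosphatase of isoprenoid diphosphates, had 0.846 against 2.09 FPKM, and ACER2, a Golgi ceramidase, 0.206 against 0.860 FPKM.

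The families of PLIN2 and VLDLR did not follow them as a whole. Of 18 perilipin and lipid droplet names 3 had a row. HILPDA, an inhibitor of droplet lipolysis, was higher at 9.39 against 0.668 FPKM, and DGAT2, which makes triglyceride, was higher at 4.33 against 1.88 FPKM. Among genes related to VLDLR, LRP8 (7.61 against 4.06 FPKM) and LRP10 (28.3 against 12.7) were higher in the deficient line. LRP6, a Wnt co-receptor, was lower at 7.17 against 28.0 FPKM, and LRP4 at 1.94 against 4.23 FPKM. LRP2 and RELN were lower too, but under 1 FPKM in both lines.

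All 5 chromatin regulators of the region were at least 2-fold lower on the FPKM + 1 scale, beside 34 of all 52 genes. Their median share kept in the deficient line, 35.1%, was still the highest of any role. SMARCA2 (ENSG00000080503, 1980290 to 2193624, plus strand), the BRM ATPase of the SWI/SNF remodelling complex, had 9.23 FPKM against 20.1 FPKM. Its entry in the authors' deposited table was a log2 fold change of -1.23, at an adjusted p of 0.00453. PSIP1, a chromatin reader that tethers other factors, had 10.4 against 34.2 FPKM, and UHRF2, a ubiquitin ligase that binds methylated DNA, 6.08 against 17.3 FPKM. KDM4C, a histone lysine demethylase, had 3.73 against 9.16 FPKM, and MLLT3, a reader that recruits the super elongation complex, 0.506 against 2.73 FPKM. Of 23 SWI/SNF names only SMARCA2 and SMARCD3 had a row, and SMARCD3 was higher at 3.17 against 0.635 FPKM.

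Transcription factors included the most abundant gene of the region. NFIB, a nuclear factor I protein, was at 12.2 FPKM without BRCA1 and at 42.4 FPKM with it, the highest value of the region in each line. BNC2, a zinc finger protein whose exons overlap the protein-coding gene C9orf92 on the same strand, had 5.65 against 12.5 FPKM, and GLIS3, a Kruppel-like zinc finger factor, 2.61 against 5.65 FPKM. BNC2 and GLIS3 kept 45.1% and 46.1% of the partner's level, while RFX3, a factor for ciliary genes, kept 24.3% (0.875 against 3.60 FPKM). SNAPC3, a subunit of the complex that starts small nuclear RNA transcription, had 4.20 against 12.8 FPKM. The DM-domain factors DMRT2 (0.0180 against 0.252 FPKM) and DMRTA1 (0.186 against 0.970 FPKM) were under 1 FPKM in both lines.

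Trafficking, nutrient sensing and protein handling took 7 genes. Of these, 6 were at least 2-fold lower on the FPKM + 1 scale, beside 34 of the 52 in the region. RRAGA, the small GTPase that brings mTORC1 to the lysosome, had 9.65 against 28.9 FPKM. PLAA, a ubiquitin-binding protein, had 9.28 against 23.5 FPKM. RANBP6, of the importin family, had 3.60 against 10.6 FPKM. DENND4C, an exchange factor for a Rab GTPase of glucose transporter vesicles, had 3.73 against 13.4 FPKM, and RIC1, part of an exchange factor for a Golgi Rab, 2.44 against 8.22 FPKM. C9orf72, which acts with a partner complex in autophagy and membrane traffic, had 1.46 against 6.02 FPKM. SH3GL2, an endophilin of synaptic vesicle recycling, stayed under 1 FPKM in both lines.

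The steepest difference of the region was in a matrix gene. ADAMTSL1 (ENSG00000178031, 17906563 to 18910950, plus strand), a secreted relative of the ADAMTS proteases without the protease domain, was at 0.0258 FPKM without BRCA1 and at 4.52 FPKM with it. In the authors' deposited table its adjusted p was 4.35e-26, rank 8 of the listed genes by p. RECK, a membrane-anchored inhibitor of matrix metalloproteases, had 1.58 against 4.41 FPKM. MAMDC2, a secreted proteoglycan, had 0.241 against 1.17 FPKM, and PLGRKT, a plasminogen receptor, 2.40 against 8.85 FPKM. In the proximal long arm PRUNE2 had the next steepest fold, with 0.125 against 3.91 FPKM and a log2 fold change of -4.18 in the authors' deposited table. The gene overlaps PCA3 and GCNT1 on the opposite strand.

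G-protein genes close the region on the long arm. GNAQ, the alpha subunit that couples receptors to phospholipase C beta, had 6.57 against 15.9 FPKM, and its neighbour GNA14, of the same class, 0.0963 against 0.848 FPKM. MPDZ, a junctional scaffold of the short arm, had 2.38 against 7.98 FPKM. FOCAD had 6.33 against 13.6 FPKM, KIAA2026 had 0.896 against 4.37, GLIPR2 had 1.12 against 4.77, SPATA6L had 0.771 against 2.49 and MOB3B had 0.351 against 1.34. The ANKRD20A genes are near-identical copies whose reads could be counted to any of them. ANKRD20A3 had 0.437 against 1.29 FPKM, and ANKRD20A1 and ANKRD20A2 were under 1 FPKM in both lines.

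**Figure D2:**
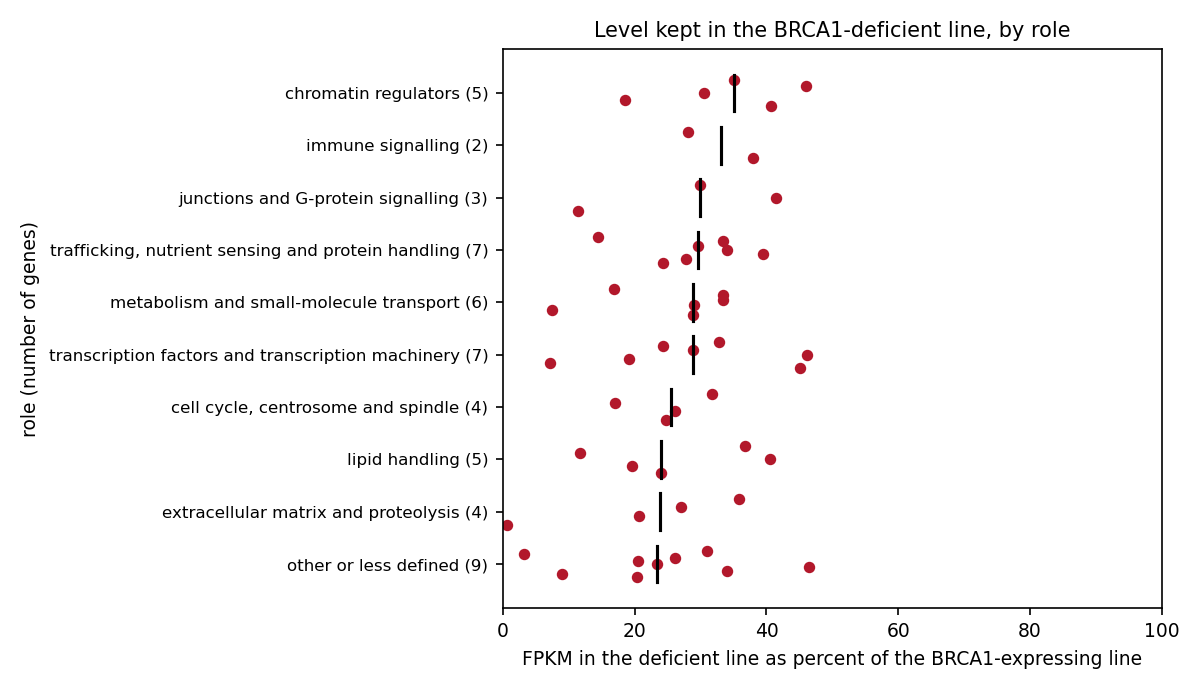
FPKM in the BRCA1-deficient line as a percent of the BRCA1-expressing line (linear axis), with 1 point per gene and a black bar at the median of each role. All points lie below 50%, and the medians run from 23.4% for the less defined genes to 35.1% for chromatin regulators.

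Roles were assigned after the values were seen, and they separated the genes little. The median share kept in the deficient line lay between 23.4% and 35.1% in all 10 roles. The ranges overlapped: chromatin regulators ran from 18.6% to 46.0%, and transcription factors from 7.16% to 46.1%. In the roles without a count above, fewer genes passed 2-fold on the FPKM + 1 scale. These were 4 of 6 in metabolism, 4 of 7 in transcription and 3 of 4 in matrix and proteolysis. Junctions and G-protein signalling had 2 of 3, and the less defined genes 3 of 9. That scale favours abundant genes, and differences between roles were not tested.

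As a share of annotated genes, the 52 were densest in the first 30 Mb and sparsest from 30 to 40 Mb. Of 103 protein-coding genes that GENCODE release 29 places in the first 30 Mb, 42 had a row (40.8%), and all 42 were lower. From 30 to 40 Mb 2 of 107 had a row (1.87%), and from 40 to 80 Mb 8 of 60 (13.3%). Across the annotated genome 9.01% of protein-coding genes had a row, and on chromosome 9 from 80 Mb on 15.4% did. In windows of 10 Mb, the second window of chromosome 9 (14 of 24 genes, 58.3%) and the first (19 of 41, 46.3%) had the highest shares among 282 windows with at least 20 protein-coding genes. The limits at 30 and 40 Mb were chosen after the values were seen.

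**Figure D3:**
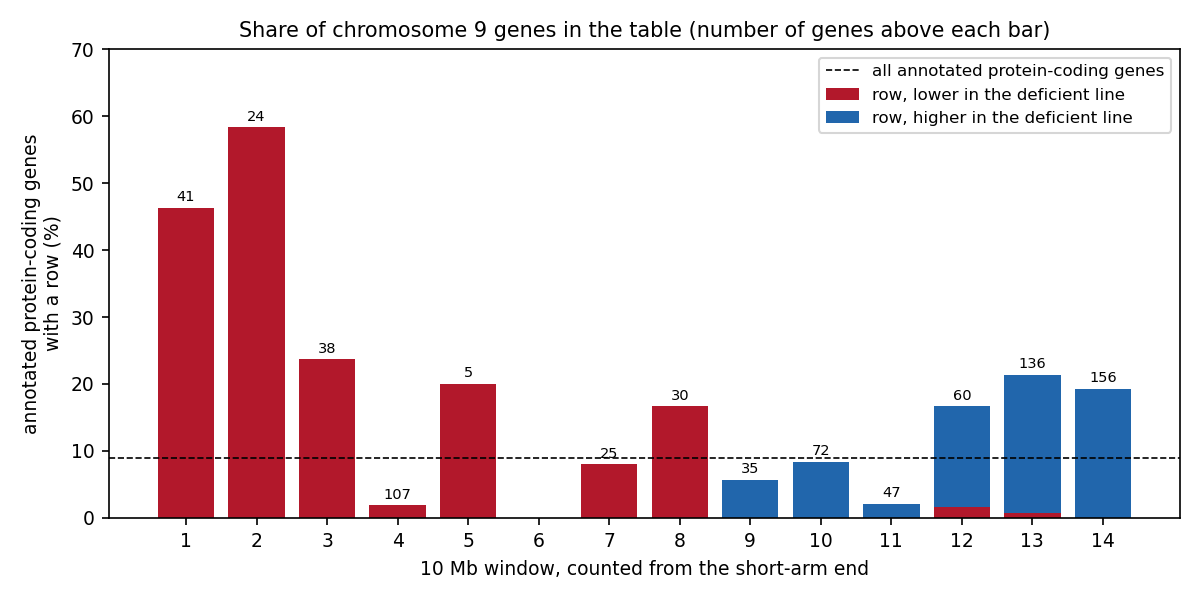
Percent of annotated protein-coding genes with a row in the table, in windows of 10 Mb counted from the short-arm end of chromosome 9, split into lower (red) and higher (blue) in the BRCA1-deficient line, with the number of annotated genes above each bar and the share of all protein-coding genes (9.01%) as a dashed line. Windows 1 and 2 reach 46.3% and 58.3%, all lower, window 4 falls to 1.87%, and from window 9 on nearly all rows are higher.

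Some of the genes were direct neighbours. In 24 of the 51 steps from 1 listed gene to the next, no other protein-coding gene started between them. With a row for 40.8% of the protein-coding genes in the first 30 Mb, neighbouring rows may follow from density. The number to be had from density was not computed. A dense run lay between 4.49 Mb (SLC1A1) and 6.72 Mb (KDM4C), where 14 genes had a row, JAK2 and CD274 among them. The list of the JAK2 and PD-L1 neighbourhood had 14 of 23 names with a row. The list of the CDKN2 and MTAP locus had 6 of 11, and the genes around PLIN2 and NFIB 14 of 23, all lower. Other lists of the region were sparser: telomeric genes had 5 of 14, the list named for 9p13 had 4 of 55, and proximal long-arm genes 5 of 34. The lists were made with the results known and several are named after genes of the region, so these counts only describe it. The longest stretch of short-arm genes without a row lay between C9orf72 at 27.5 Mb and RECK at 36.0 Mb and held 79 protein-coding genes.

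The direction turned within the long arm. The last genes inside the limit were PRUNE2 at 76.6 Mb, GNA14 at 77.4 Mb and GNAQ at 77.7 Mb. The first genes outside it were FRMD3 at 83.2 Mb (2.68 against 0.698 FPKM), CTSL at 87.7 Mb (23.7 against 10.7) and SYK at 90.8 Mb (3.86 against 1.58), all higher in the deficient line. On the rest of chromosome 9, 76 of 78 rows were higher. The exceptions were PAPPA at 116 Mb and OLFML2A at 125 Mb. Chromosome 18, another stretch with mostly lower rows, had 45 of 47 rows lower, beside 46.5% of all listed genes. Its median log2 difference was -1.04. The difference between the regions was not tested. The position limit was chosen with the direction known, so a turn close to it describes that choice.

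**Figure D4:**
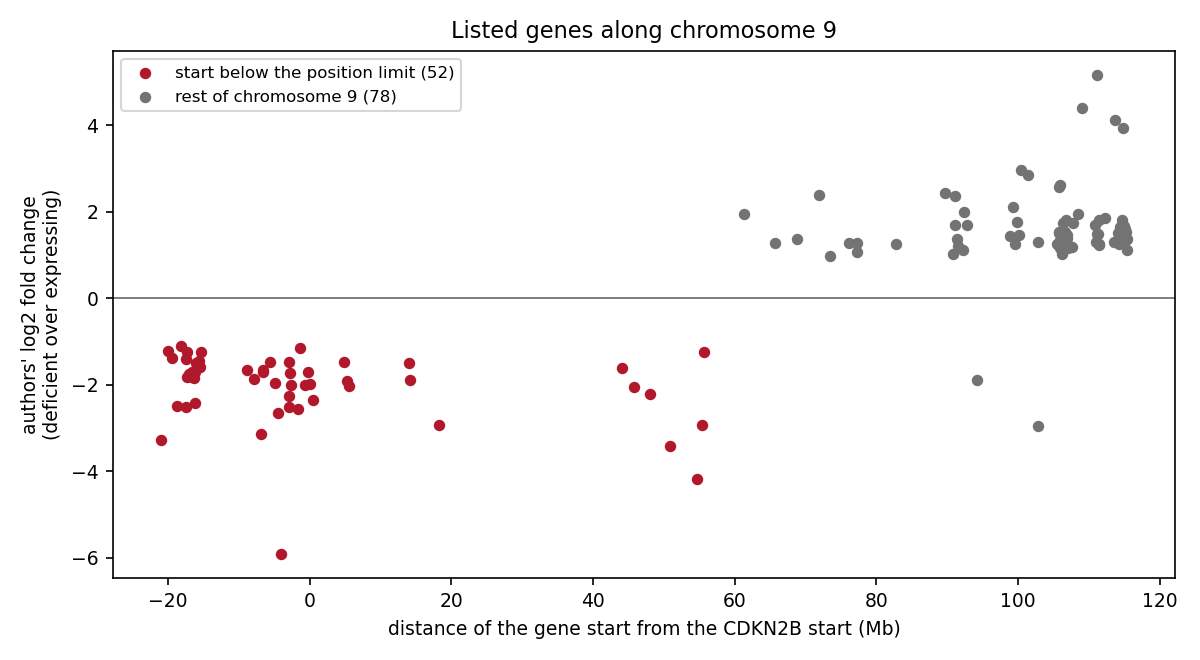
Authors' log2 fold change (deficient over BRCA1-expressing) of the 130 listed chromosome 9 genes against the distance of their start from the CDKN2B start in Mb, with the 52 genes below the position limit in red and the other 78 in grey. All red points lie below 0, from -1.10 to -5.92, and 76 of the grey points lie above 0.

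The genes share features that the choice of region did not use, though it may fix some of them. Their longest transcripts had a median GC content of 42.1%, close to the 42.0% of the rows on chromosome 18. The median was 44.2% for the other lower genes, 51.5% for all listed genes and 59.0% for the rows on the rest of chromosome 9. The median gene span was 105161 bases, against 64703 for the other lower genes, 83013 for the rows on chromosome 18 and 36560 for all listed genes. They lay on both strands, 25 on plus and 27 on minus. Exons of 16 genes overlapped a gene on the opposite strand, among them the pairs SNAPC3 with PSIP1, RIC1 with ERMP1 and SPATA6L with PLPP6. The libraries are strand-specific, but the sources used here do not say whether counting used the strand. GC content moves with the direction of the difference across the table, and its part in the result was not tested.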

How the data were processed

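Strand-specific libraries of ribosomal RNA-depleted total RNA were made from each line, per the labels' protocols. HISAT2, StringTie 1.3.3b and the mouse build mm9 are named in the submitters' processing notes. The deposited coordinates are human, and all 52 gene IDs were found in GENCODE release 29 (GRCh38) on chromosome 9. FPKM were computed by the authors. Every FPKM of the 52 genes was a whole number of steps of its sixth decimal after multiplication by 3 (tolerance 0.02 of a step). A single value given to its sixth decimal would pass this too. Some, such as 0.0127433333 for ALDH1A1 in the deficient line, were not whole steps before the multiplication. How many were so was not counted. The values were read as averages over 3, while the labels give a single sample for each line. Log2 fold changes, with the BRCA1-expressing line as their base, were deposited by the authors. So were both kinds of p-value (raw and adjusted), which the authors computed. The test behind them is not stated in the sources used here. Computed here were log2 of FPKM + 1, counts past 2-fold, shares of annotated genes with a row, and motif matches, with Python 3.11.15, numpy 2.4.6, pandas 2.3.3 and matplotlib 3.10.9. With 1 sample per group no test was made. Genes at 1 FPKM or more in either line are named with values. Others are named where they belong to a list, or to complete a role. Members, roles and the 14 gene lists were chosen with earlier results of these data known. Alternatives were other pseudocounts, scalings, filters, size rules and position limits. Some genes of these lists are not reported here.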

Additional observations from a re-analysis of the deposited data

How the results depend on the processing

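All 52 genes were lower by FPKM. None of the 260 values of single genes under 5 other settings changed sign, but this could not have come out otherwise. A pseudocount cannot turn the sign, and both scalings lowered the deficient line further. The remaining setting was the authors' fold, already negative for all 52. The count of 34 genes at least 2-fold lower rose to 52 with a pseudocount of 0.1 or 0.01 and with the authors' fold, and fell to 4 with a 4-fold rule. Bringing the lines to equal totals gave 39 and centring on the median ratio gave 40, with a shift of -0.28 and -0.61 in the median log2 difference over the whole table. Both scalings are computed from called genes alone. With the position limit at 90 Mb, 2 genes at least 2-fold higher entered. Leaving out the ANKRD20A copies, an alternative chosen after seeing the data, left 49 of 49 lower. No paired analysis was possible because each line has 1 sample, and for the same reason no replicate could be left out. The depth is unknown, so values under 1 FPKM carry an error that cannot be given.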
